A study of Mus musculus with 4 samples.

Results

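The genes described here are 51 genes of skeletal muscle that encode contractile proteins, their calcium-handling and energy-supplying partners, and the transcription factors of the myogenic lineage. They were chosen by gene name, by their known role in muscle, and all 51 were found among the 23946 genes of the expression files. The study asked how loss of 1 copy of Twist1, a basic helix-loop-helix transcription factor of the cranial mesenchyme, affects the frontal and parietal bones of the skull vault, the first derived mainly from neural crest and the second from mesoderm. Total RNA from calvarial bone of C57BL/6J mice at postnatal day 21 was sequenced in 4 groups: wild-type frontal, wild-type parietal, Twist1+/- frontal and Twist1+/- parietal. Bone from 12 mice of each strain was used, and each group was represented by 1 library, so no spread between replicates could be measured, no test was possible, and every difference below is a difference between 2 libraries. The study describes its parietal bone tissue as made up of pericranium, bone plate and dura mater. Whether attached muscle was removed from the bones is not said in the sources used here.

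Skeletal muscle contracts when myosin heavy chains of the thick filament pull on actin filaments. The pull is switched on by calcium that binds troponin C, which together with troponin I and troponin T controls access to actin. Fast and slow fibres use different genes for many of these proteins, and developing and regenerating fibres use further embryonic and neonatal genes. The myogenic transcription factors Myod1, Myf5, Myog and Myf6 bind E-boxes in muscle genes, often near sites for MEF2 and serum response factor. In the head, chewing muscles such as temporalis arise on the side of the skull vault, and thin facial and scalp muscles lie over it.

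The sarcomeric myosin heavy chains carry much of what follows, and they are close copies of each other, so their sequences are shown first. In the mm9 build the developmental and fast chain genes lie side by side on the + strand: Myh3 at chr11:66891802-66915793, Myh2 at chr11:66984529-67011019, Myh1 at chr11:67013554-67038078, Myh4 at chr11:67051314-67073948 and Myh8 at chr11:67090626-67122136. The slow chain gene Myh7 lies apart, on the - strand, at chr14:55589525-55613471. The aligned coding sequence of Myh1 was identical to that of Myh2 at 90.9% of positions, to Myh4 at 90.1%, to Myh8 at 89.2%, to Myh3 at 80.2% and to Myh7 at 77.2%. A window of 75 bases, the length of the reads, is printed below for all 6 chains, from coding bases 3841 to 3915 of Myh1 and the aligned bases of the others. Capitals mark the bases that differ from Myh1, and any pair of the 6 differs here at 18 positions or more.

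Myh1: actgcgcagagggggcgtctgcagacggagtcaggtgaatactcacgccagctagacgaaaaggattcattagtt
Myh2: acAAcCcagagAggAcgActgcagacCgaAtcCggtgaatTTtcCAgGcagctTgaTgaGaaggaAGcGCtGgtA
Myh4: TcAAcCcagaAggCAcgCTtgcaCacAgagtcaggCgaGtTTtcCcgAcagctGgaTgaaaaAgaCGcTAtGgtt
Myh8: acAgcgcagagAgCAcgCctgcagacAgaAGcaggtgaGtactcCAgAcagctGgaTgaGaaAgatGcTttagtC
Myh3: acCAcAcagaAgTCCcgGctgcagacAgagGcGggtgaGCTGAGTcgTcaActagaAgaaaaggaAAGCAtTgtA
Myh7: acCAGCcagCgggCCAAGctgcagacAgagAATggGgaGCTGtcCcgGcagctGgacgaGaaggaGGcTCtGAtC

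Such a window tells the chains apart, but others do not. Of all 75-base windows of its longest coding transcript, Myh1 shared 16.6% with another gene, chiefly Myh2, and Myh2 shared 16.3%, chiefly with Myh1. The shared part was 12.9% for Myh8, 9.68% for Myh4 and 1.86% for Myh3, and 15.3% for Myh7, whose partner was the cardiac gene Myh6. How reads from shared windows were divided among the chains is not given in the sources used here, so small levels of a chain beside an abundant neighbour are uncertain. Outside the myosins, 40.6% of the windows of Tnnc2 lay in common with Ube2c and 17.6% of those of Ckm with A930016O22Rik. In all, 6 of the 51 genes shared over 10% of their windows.

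The 200 bases upstream of the annotated start were searched on both strands for the E-box (CANNTG), the MEF2 site and the CArG box bound by serum response factor, each match being counted whether or not it overlapped another. An E-box was present for 38 of the 51 genes (74.5%) and for 53.5% of 19330 coding genes of the files. The MEF2 site was present for 9 of 51 (17.6%) and for 1.33% of all, and the CArG box for 7 of 51 (13.7%) and for 1.03% of all. A skeletal actin, a cardiac actin, a fast myosin and a regulator are shown as examples, 1 for each kind of match and a pair of actins that share the CArG box. The stretches are Acta1 at chr8:126418652-126418851 (- strand, CArG box in capitals), Actc1 at chr2:113878624-113878823 (- strand, CArG box), Myh1 at chr11:67013354-67013553 (+ strand, MEF2 site) and Myog at chr1:136186381-136186580 (+ strand, 2 E-boxes), all in mm9.

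Acta1: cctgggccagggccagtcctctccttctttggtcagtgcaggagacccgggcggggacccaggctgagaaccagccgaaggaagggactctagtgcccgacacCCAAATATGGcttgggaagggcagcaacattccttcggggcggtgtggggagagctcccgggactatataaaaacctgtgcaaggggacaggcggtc
Actc1: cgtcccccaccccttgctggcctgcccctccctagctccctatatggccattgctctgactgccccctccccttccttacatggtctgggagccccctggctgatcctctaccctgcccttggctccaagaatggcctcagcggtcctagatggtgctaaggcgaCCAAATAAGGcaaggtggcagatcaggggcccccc
Myh1: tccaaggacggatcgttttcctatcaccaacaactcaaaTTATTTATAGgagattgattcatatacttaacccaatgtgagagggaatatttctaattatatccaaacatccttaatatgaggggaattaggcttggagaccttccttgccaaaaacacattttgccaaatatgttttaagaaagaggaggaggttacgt
Myog: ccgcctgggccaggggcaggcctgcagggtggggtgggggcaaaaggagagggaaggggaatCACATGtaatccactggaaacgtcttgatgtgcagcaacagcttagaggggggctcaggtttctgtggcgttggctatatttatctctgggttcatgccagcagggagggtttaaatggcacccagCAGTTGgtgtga

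Counted from -1 at the base next to the start, the CArG box of Acta1 began at position -97 and that of Actc1 at -35. The MEF2 site of Myh1 began at -161, and the E-boxes of Myog at -138 and -12. The Actc1 stretch lies in an intron of a longer annotated transcript of the same gene and overlaps no exon. Those of Acta1, Myh1 and Myog lie next to their annotated genes and also overlap no exon. These matches describe letters in a window and not the binding of a factor, which was not measured.

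Levels are given in FPKM, a read level scaled to the length of the transcript and to the library. How the libraries were scaled is not given in the sources used here. The 4 values in a row are always in the order wild-type frontal, wild-type parietal, Twist1+/- frontal and the library labelled Twist1+/- parietal. A gene was counted as higher or lower where its FPKM ratio was above 3 and the higher library reached 1 FPKM. Twist1 was at 59.0, 52.5, 30.4 and 50.7 FPKM, so the frontal pair differed as the labels say and the parietal pair hardly differed. For this reason that library is called by its label throughout, and any direction drawn from it rests on the label. Bone genes were abundant in every library: all 10 osteoblast and osteocyte markers reached 1 FPKM, and their summed level was 10830, 9200, 8693 and 13204 FPKM. The study's methods give read depth as an average over libraries only. From the smallest steps among low genes, 1 read in a transcript of 1 kilobase was worth about 0.0254, 0.0421, 0.0330 and 0.0430 FPKM. In a longer transcript it was worth less in proportion, and read numbers given below are rough estimates from these values. These steps imply fewer reads per library than that average, so the numbers may be too low. In wild-type frontal the globin genes Hbb-b1 and Hba-a1 were listed at 0 against 11198 FPKM or more in each other library, so an exact 0 in these files can be a failed estimate.

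Every one of the 51 muscle genes was lowest in wild-type frontal bone, against 20.7% of all genes that reached 1 FPKM in any library. The 51 were not held to that floor, and for genes of few reads the rank is uncertain. Tnni1, Myh3, Myf5 and Pax7 had about 8, 4, 0 and 1 reads in wild-type frontal and 7, 7, 2 and 4 in Twist1+/- frontal. The highest level was in wild-type parietal for 40 of the 51, against 35.5% of all genes. It was in the library labelled Twist1+/- parietal for 10 (21.9% of all genes) and in Twist1+/- frontal for Myog alone. Together the 51 made up 0.0347%, 0.703%, 0.350% and 0.381% of the summed FPKM. Their median level was 0.673, 13.5, 4.83 and 4.24 FPKM, while the median of all genes was 2.41, 1.85, 2.50 and 1.93 FPKM. In wild-type frontal 21 of them reached 1 FPKM and none reached 100, while 45 reached 1 FPKM in wild-type parietal and 8 reached 100. In bulk bone, fewer muscle cells and less muscle RNA per cell cannot be told apart.

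**Figure D1:**
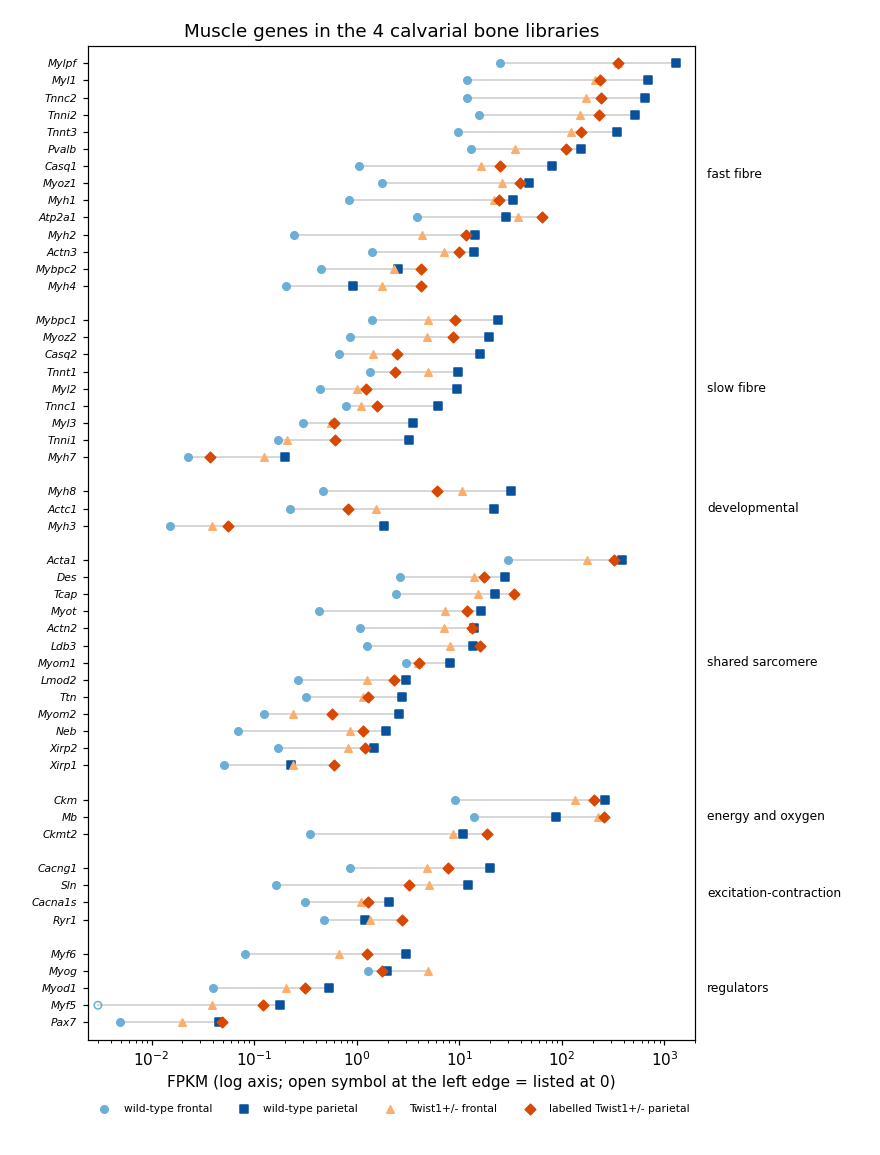
FPKM of the 51 muscle genes (log axis) in the 4 libraries, grouped by role; each symbol is 1 library and the open symbol marks a gene listed at 0. The wild-type frontal symbol lies furthest left for all 51 genes, and the wild-type parietal symbol furthest right for 40.

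Between the wild-type bones, 42 of the 51 genes were higher in parietal and 0 were lower, and the other 9 did not pass the ratio or the floor. Among all genes tested, 4.07% were higher in parietal and 9.2% were lower. The median difference on the log2(FPKM + 1) scale was 2.69 over the muscle genes and -0.01 over all genes. Between the frontal bones, 33 were higher in Twist1+/- and 0 were lower, where 3.17% of all genes were higher and 0.725% lower, and the median difference was 1.38 against -0.03 for all genes. Neither count uses the library labelled Twist1+/- parietal, but both use wild-type frontal, so they share the library in which all 51 genes were lowest.

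In parietal bone the picture was mixed. Relative to wild-type, 1 gene was higher in the library labelled Twist1+/- parietal, 13 were lower and 37 did not pass, where 5.25% of all genes were higher and 2.94% lower. The median difference was -0.45 over the muscle genes and -0.05 over all genes, and 41 of the 51 ratios were below 1. Between the bones of Twist1+/- mice, 1 gene, Pvalb, was higher in the library labelled parietal and 0 were lower (0.846% and 3.24% of all genes), with a median difference of 0.37 against -0.03. By role, the lower genes of the parietal comparison were 2 of 14 fast fibre genes, 6 of 9 slow fibre genes, all 3 developmental genes, 1 of 13 shared sarcomere genes and 1 of 4 excitation-contraction genes. None of the 3 energy genes and none of the 5 regulators was among them.

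The fast myosin heavy chains were each below 1 FPKM in wild-type frontal bone and higher in the other 3 libraries. Myh1, the type 2X chain, was at 0.847, 33.3, 21.7 and 24.6 FPKM, and Myh2, the type 2A chain, at 0.245, 14.2, 4.35 and 11.6 FPKM. Both were within 1.36-fold between the parietal libraries, and Myh2 was 2.66-fold higher in the library labelled Twist1+/- parietal than in Twist1+/- frontal. Myh4, the type 2B chain of the fastest fibres, was at 0.206, 0.921, 1.77 and 4.2 FPKM. It was the only one of the 51 genes to be higher by the criterion in both genotype comparisons, by 8.62-fold between the frontal and 4.56-fold between the parietal libraries. Its order of levels thus differed from that of its neighbours Myh1 and Myh2, which were highest in wild-type parietal.

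The small subunits of the fast contractile machinery were among the muscle genes of highest FPKM. Mylpf, the fast regulatory light chain, was at 25.0, 1295, 353 and 357 FPKM, the highest level of any of the 51 genes in each library but wild-type frontal, where Acta1 was higher. Myl1, the fast essential light chain, was at 12.0, 695, 212 and 233 FPKM. The 3 subunits of fast troponin followed the same order: Tnnt3, which anchors the complex to tropomyosin, at 9.71, 348, 122 and 154 FPKM. Tnni2, the inhibitory subunit, was at 15.5, 516, 152 and 233 FPKM, and Tnnc2, the calcium-binding subunit, at 11.9, 645, 174 and 243 FPKM. For these 5 genes wild-type parietal exceeded wild-type frontal by 33.2-fold to 58.1-fold and the library labelled Twist1+/- parietal by 2.22-fold to 3.63-fold. Only Mylpf passed the ratio of 3 in the parietal comparison, and Myl1, at 2.98-fold, lay just under it.

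Other fast fibre genes were nearer to each other between the parietal libraries. Mybpc2, the fast myosin-binding protein C, was at 0.453, 2.50, 2.31 and 4.24 FPKM, and Actn3, the Z-disc alpha-actinin of fast fibres, at 1.41, 14.0, 7.09 and 9.95 FPKM. Myoz1, a Z-disc protein that binds calcineurin, was at 1.78, 48.2, 26.3 and 38.9 FPKM. All 3 were within 1.69-fold between the parietal libraries. The calcium genes of fast fibres did not move as a group. Pvalb, a soluble calcium buffer, was at 12.9, 152, 35.4 and 111 FPKM, and it was the only one of the 14 fast fibre genes within 3-fold between the frontal libraries. Atp2a1, the calcium pump of the fast sarcoplasmic reticulum, was at 3.87, 28.7, 37.7 and 64.0 FPKM, lower in wild-type parietal than in either Twist1+/- library. Casq1, the calcium store protein beside that pump, was at 1.06, 81.0, 16.4 and 25.0 FPKM, 3.24-fold lower in the library labelled Twist1+/- parietal than in wild-type parietal. Between the parietal libraries the pump was thus 2.23-fold higher while the store protein was lower.

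The 9 slow fibre genes were all highest in wild-type parietal, where most stood well above the other 3 libraries. Myh7, the slow and cardiac beta chain, was at 0.0225, 0.198, 0.125 and 0.0374 FPKM, about 6, 29, 24 and 5 reads, and never reached the floor. Myl2, the slow regulatory light chain, was at 0.435, 9.55, 1.0 and 1.22 FPKM, and Myl3, the slow essential light chain, at 0.296, 3.51, 0.564 and 0.608 FPKM. In both, the wild-type parietal level lay apart from the other 3 libraries, and it was 7.81-fold and 5.78-fold above the library labelled Twist1+/- parietal.

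The slow troponins did likewise. Tnni1 was at 0.173, 3.22, 0.209 and 0.613 FPKM, about 8, 88, 7 and 16 reads, and Tnnc1, which the heart also uses, at 0.789, 6.25, 1.10 and 1.59 FPKM. Tnnt1 was at 1.36, 9.63, 4.95 and 2.35 FPKM, with Twist1+/- frontal nearer to wild-type parietal than for the other slow troponins. Casq2, the slow and cardiac calsequestrin, was at 0.673, 15.9, 1.44 and 2.48 FPKM. All 4 were lower in the library labelled Twist1+/- parietal than in wild-type parietal, by 5.26-fold for Tnni1, 3.94-fold for Tnnc1, 4.09-fold for Tnnt1 and 6.43-fold for Casq2. The remaining slow genes did not pass there: Mybpc1, the slow myosin-binding protein C, was at 1.42, 24.1, 5.0 and 9.08 FPKM. Myoz2, the slow and cardiac relative of Myoz1, was at 0.856, 19.6, 4.83 and 8.73 FPKM. Between the frontal libraries only Mybpc1, Tnnt1 and Myoz2 of the 9 slow genes were higher in Twist1+/-, against 13 of the 14 fast fibre genes. Only 6 of the 9 slow genes reached 1 FPKM in either frontal library and could be called, while all 14 fast genes did. Of all genes, 3.17% were higher there. The median difference there was 0.48 for the slow and 3.15 for the fast genes on the log2(FPKM + 1) scale, which compresses low levels.

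The 3 developmental genes were all highest in wild-type parietal and all lower in the library labelled Twist1+/- parietal. Myh3, the embryonic heavy chain, was at 0.0150, 1.86, 0.0391 and 0.0559 FPKM, about 4, 266, 7 and 8 reads. Actc1, the cardiac actin that fetal skeletal muscle also uses, was at 0.225, 21.7, 1.53 and 0.828 FPKM, about 13, 758, 68 and 28 reads. Wild-type parietal was the only library in which Myh3 reached 1 FPKM, and Actc1 was above 1.53 FPKM only there. Relative to it, the library labelled Twist1+/- parietal was 33.3-fold lower for Myh3 and 26.2-fold lower for Actc1. Myh8, the neonatal heavy chain, was present more widely, at 0.467, 31.7, 10.7 and 6.02 FPKM, and was 5.26-fold lower in the library labelled Twist1+/- parietal than in wild-type parietal. Between the frontal libraries Myh8 was 22.9-fold higher in Twist1+/-.

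Shares within a gene family were set beside the levels, since they do not scale with the total of muscle RNA. Of the summed FPKM of the 6 sarcomeric heavy chains, Myh1 took 47.0%, 40.6%, 56.1% and 52.9%, the largest part in every library. Myh8 took 25.9%, 38.6%, 27.7% and 13.0%, and with Myh3 the developmental chains made up 26.7%, 40.8%, 27.8% and 13.1%. The developmental part was thus largest in wild-type parietal and smallest in the library labelled Twist1+/- parietal, with the frontal libraries between and close to each other. Myh3 itself was 2.26% of the chains in wild-type parietal and 0.834%, 0.101% and 0.12% in the others. Myh2 took 13.6%, 17.3%, 11.2% and 24.9%, Myh4 took 11.4%, 1.12%, 4.58% and 9.05%, and Myh7 took 1.25%, 0.241%, 0.325% and 0.0806%. In wild-type frontal the 6 chains summed to only 1.80 FPKM, and its shares rest on few reads, about 203 for Myh1, 59 for Myh2 and 49 for Myh4. The low share of Myh4 in wild-type parietal rests on about 132 reads beside about 4817 of Myh1, with which it shares windows.

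**Figure D2:**
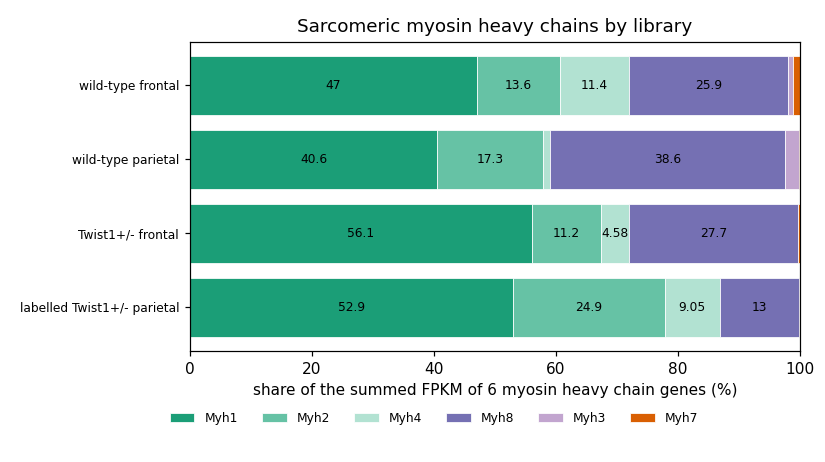
Share of the summed FPKM of 6 sarcomeric myosin heavy chain genes (%) in each library; each bar is 1 library and each colour 1 gene. The neonatal chain Myh8 fills 38.6% of the wild-type parietal bar and 13.0% of the bar of the library labelled Twist1+/- parietal.

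The slow members of paired families were a small part of the total in most libraries. Slow troponin I made up 1.10%, 0.621%, 0.137% and 0.263% of troponin I, slow troponin T 12.3%, 2.69%, 3.90% and 1.51% of troponin T, and the slow and cardiac form 6.22%, 0.96%, 0.627% and 0.649% of troponin C. The slow light chains were 1.94%, 0.652%, 0.276% and 0.309% of Myl1, Mylpf, Myl2 and Myl3 together. In these families the slow share was highest in wild-type frontal, the library with the least muscle RNA, and the share in wild-type parietal was above that of the library labelled Twist1+/- parietal in all 4. The wild-type frontal shares rest on few reads, about 8 for Tnni1, 57 for Tnnt1, 22 for Tnnc1, 15 for Myl2 and 11 for Myl3. Casq2 made up 38.7%, 16.4%, 8.07% and 9.0% of calsequestrin, and Myoz2 32.4%, 28.9%, 15.5% and 18.3% of the myozenins 1 and 2. Mybpc1 outweighed Mybpc2 in every library, with 75.8%, 90.6%, 68.4% and 68.2% of their sum. Cardiac actin was 0.744%, 5.25%, 0.863% and 0.257% of the 2 sarcomeric actins, and here wild-type parietal stood above all other libraries.

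**Figure D3:**
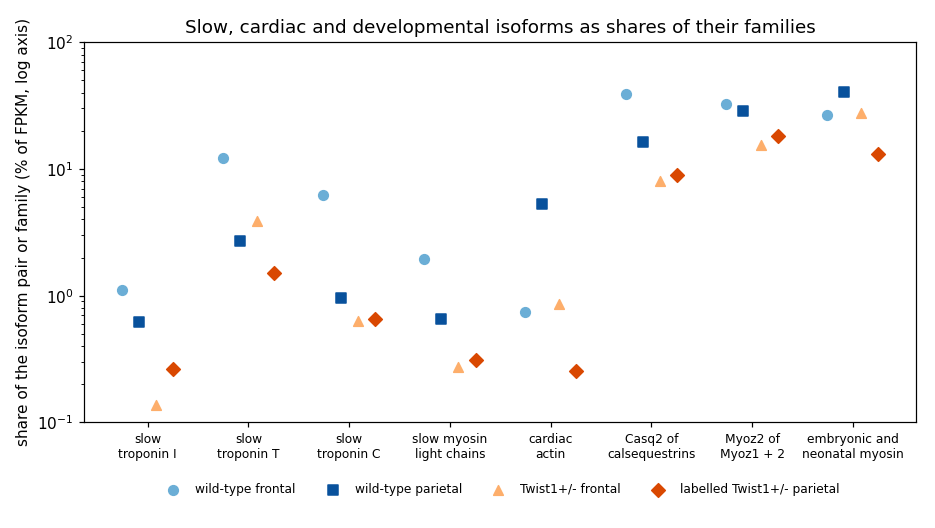
Share of slow, cardiac or developmental isoforms in the summed FPKM of their pair or family (%, log axis); each symbol is 1 library. Cardiac actin reached 5.25% in wild-type parietal and 0.863% or less in the other 3 libraries.

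For the 13 genes that fast and slow fibres share, the median ratio of the library labelled Twist1+/- parietal to wild-type parietal was 0.752, beside 0.720 for the fast, 0.190 for the slow and 0.0382 for the developmental genes. Acta1, skeletal alpha-actin, was at 30.01, 391, 175 and 322 FPKM, and Actn2, which cross-links actin in the Z-disc, at 1.07, 14.1, 7.18 and 13.4 FPKM. Ttn, the giant spring from Z-disc to M-band, was at 0.321, 2.76, 1.15 and 1.29 FPKM, and Neb, which runs along the thin filament, at 0.0700, 1.94, 0.853 and 1.16 FPKM. Acta1 and Actn2 differed by 1.21-fold and 1.05-fold between the parietal libraries, Ttn by 2.14-fold and Neb by 1.67-fold. Lmod2, a leiomodin that elongates thin filaments, was at 0.267, 3.06, 1.25 and 2.30 FPKM. Des, the intermediate filament desmin that smooth muscle also uses, was at 2.66, 27.7, 13.8 and 17.3 FPKM. Both followed the common order, lowest in wild-type frontal and highest in wild-type parietal.

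Z-disc and M-band genes varied more. Myot, myotilin of the Z-disc, was at 0.431, 16.2, 7.34 and 12.0 FPKM. Tcap, the titin cap, was at 2.42, 22.4, 15.2 and 34.2 FPKM, and Ldb3, a PDZ and LIM protein of the Z-disc, at 1.25, 13.5, 8.15 and 15.9 FPKM. Tcap and Ldb3 were higher in the library labelled Twist1+/- parietal than in wild-type parietal, by 1.53-fold and 1.18-fold. Myom1, which links thick filaments at the M-band, was at 3.0, 8.07, 4.0 and 4.08 FPKM, the narrowest range of the shared genes and the highest of them after Acta1 in wild-type frontal. Its relative Myom2 was at 0.125, 2.57, 0.238 and 0.577 FPKM, 4.46-fold lower in the library labelled Twist1+/- parietal than in wild-type parietal, and only this shared gene passed there. The actin-binding proteins Xirp1 and Xirp2 were at 0.0511, 0.231, 0.239 and 0.606 FPKM and at 0.173, 1.48, 0.828 and 1.21 FPKM. Xirp1 was highest in the library labelled Twist1+/- parietal but stayed under 1 FPKM everywhere.

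The energy genes gave no lower call in parietal bone. Ckm, muscle creatine kinase, was at 9.08, 263, 134 and 206 FPKM, and Ckmt2, its mitochondrial partner, at 0.353, 10.8, 8.65 and 18.5 FPKM. Mb, the oxygen-binding protein myoglobin, was at 14.1, 87.2, 224 and 261 FPKM. Mb was 15.9-fold higher in Twist1+/- frontal than in wild-type frontal and 2.99-fold higher between the parietal libraries, just under the criterion. Ckm followed the order of the fast contractile genes, while Mb and Ckmt2 were highest in the library labelled Twist1+/- parietal.

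Genes of excitation-contraction coupling split the same way. Ryr1, the calcium release channel of the sarcoplasmic reticulum, was at 0.486, 1.21, 1.36 and 2.79 FPKM and never passed the ratio of 3. Cacna1s, the voltage sensor that opens it, was at 0.312, 2.07, 1.11 and 1.30 FPKM, and its gamma subunit Cacng1 at 0.870, 19.8, 4.8 and 7.84 FPKM. The channel was 2.30-fold higher in the library labelled Twist1+/- parietal than in wild-type parietal, while the sensor was 1.59-fold and its subunit 2.52-fold lower. Sln, the small inhibitor of the calcium pump, was at 0.165, 12.1, 5.12 and 3.25 FPKM, about 3, 147, 80 and 39 reads, and was 3.71-fold lower in the library labelled Twist1+/- parietal than in wild-type parietal.

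The regulators were measured by few reads. Myod1, which commits cells to the muscle lineage, was at 0.0398, 0.535, 0.204 and 0.311 FPKM, about 3, 24, 11 and 13 reads. Myf5, which acts with it in early myoblasts, was listed at 0 in wild-type frontal and was at 0.180, 0.0386 and 0.122 FPKM in the others, about 9, 2 and 6 reads. Pax7, the mark of satellite cells, the resting stem cells of muscle, was at 0.00492, 0.0455, 0.0198 and 0.0486 FPKM, about 1, 6, 4 and 7 reads. At such depth no difference in Myf5 or Pax7 was detectable. Myf6, the regulator kept in mature fibres, was at 0.0821, 3.01, 0.670 and 1.27 FPKM, about 4, 89, 25 and 37 reads, in the same order as the contractile genes. Myog, which drives fusion and differentiation, had another order, at 1.28, 1.96, 4.93 and 1.78 FPKM. It was 3.87-fold higher in Twist1+/- frontal than in wild-type frontal and differed by 1.53-fold between the wild-type bones, the smallest ratio in that comparison.

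**Figure D4:**
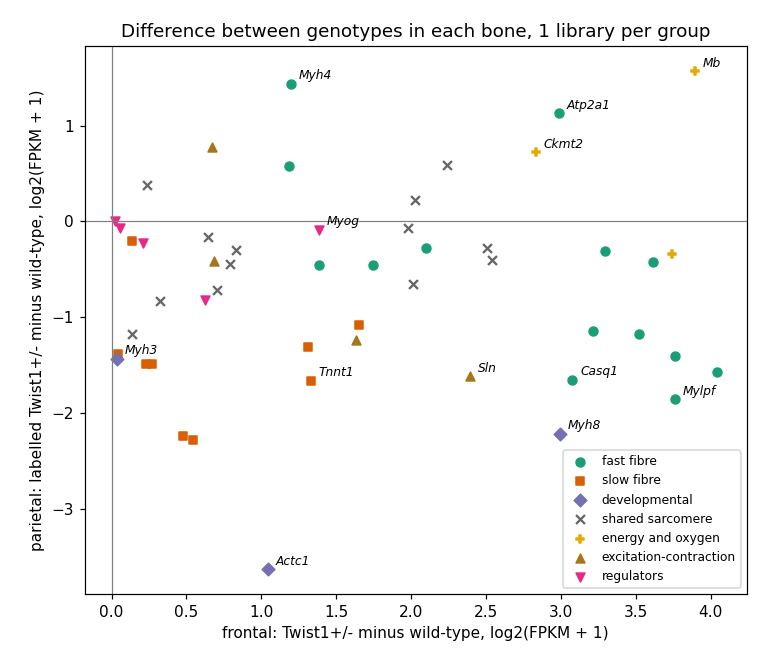
Difference between genotypes on the log2(FPKM + 1) scale in frontal bone (x axis) and in parietal bone (y axis) for the 51 muscle genes; each point is 1 gene, with colour and shape giving its role, and each difference rests on 2 libraries. All points lie right of 0 on the x axis, and 41 lie below 0 on the y axis, where Actc1 is lowest at -3.63.

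The genotype differences pointed opposite ways in the 2 bones for most of these genes. All 51 were higher in Twist1+/- frontal than in wild-type frontal, 41 of them with a lower level in the library labelled Twist1+/- parietal than in wild-type parietal, a pattern held by 21.1% of all genes that reached 1 FPKM in any library. The other 10 had higher values in both, namely Myh4, Mybpc2, Atp2a1, Tcap, Ldb3, Xirp1, Ckmt2, Mb, Ryr1 and Pax7, of which Pax7 rests on too few reads to give a direction. Past the ratio of 3 in both bones, 6 genes were opposed, Mylpf, Casq1, Tnnt1, Myh8, Actc1 and Sln, and Myh4 alone was higher in both. Among all genes at 1 FPKM in both comparisons, 0.185% were opposed in this way and 1.46% were higher in both. The count of 41 mostly restates the order of levels, as all 51 were lowest in wild-type frontal and 40 were highest in wild-type parietal. The 6 opposed genes are among these 40, so their count is not separate from that order. The difference between bones in the genotype effects could not be tested with 1 library per group.

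Transcript length and base composition were set beside the parietal comparison as descriptions. Of the 51 genes, 26 with transcripts under 2000 bases had a median log2 FPKM ratio of -1.21 between the library labelled Twist1+/- parietal and wild-type parietal, and 25 longer ones a median of -0.49. Over 12550 genes this ratio had a Spearman correlation of 0.55 with GC content, and over the 46 muscle genes that reached 1 FPKM of 0.23. With the median of genes of similar GC content subtracted, 15 muscle genes passed the ratio in place of 14. The part of transcript length and GC content in these differences was not tested further.

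A wider set of 117 muscle-related genes outside the 51 was followed in 10 lists. Between the wild-type bones 38 of the 117 were higher in parietal and 4 lower, and between the frontal libraries 19 were higher in Twist1+/- and 0 lower. In the parietal comparison 4 were higher in the library labelled Twist1+/- parietal and 6 lower, and between the bones of Twist1+/- mice 3 were higher and 0 lower. Read against the shares of all genes given above, the higher counts of the first 2 comparisons stood well over 4.07% and 3.17%. In the parietal comparison the higher count lay under 5.25% and the lower count over 2.94%. Those shares cover genes that reached 1 FPKM in either library, to which the 117 were not limited. The median differences of the 117 were 0.54, 0.28, -0.10 and 0.06 on the log2(FPKM + 1) scale.

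Among structural and metabolic lists, 10 of 17 genes accessory to the thick and thin filaments were higher in wild-type parietal than in wild-type frontal and 6 of 17 in Twist1+/- frontal. The highest of them were Tpm1, a tropomyosin, at 202, 672, 329 and 391 FPKM, and Capza2, a capping protein of actin used in many cells, at 84.2, 157, 88.8 and 68.2 FPKM. Of 16 muscle metabolism genes, 8 and 5 were higher in these comparisons. The glycolytic enzyme Aldoa was at 264, 386, 336 and 418 FPKM, and Cox6a2, the muscle form of a cytochrome oxidase subunit, at 5.23, 117, 47.7 and 87.3 FPKM. None of the 16 passed in the parietal comparison, as for the 3 energy genes above. Of 12 triad and calcium genes, 6 and 2 were higher in the first comparisons and none passed in the parietal one. The highest were Fkbp1a at 120, 151, 126 and 185 FPKM and Asph at 18.9, 31.1, 19.996 and 20.2 FPKM, both used outside muscle. Of 13 genes of muscle protein quality control, 6 and 4 were higher. Cryab, a small heat shock protein, was at 61.1, 91.7, 74.4 and 111 FPKM, and its relative Hspb6 at 8.65, 12.0, 19.8 and 21.8 FPKM.

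The lists closer to membranes, nerve contacts and precursors held fewer calls. Genes that never reached 1 FPKM could not be called. That level was reached by 11 of 12 sarcolemma and costamere genes and 4 of 9 genes of the neuromuscular junction. It was reached by 12 of 14 genes of myoblast fusion and satellite cells and 3 of 6 regulators of head muscle. Over all genes tested, 4.07% were higher and 9.2% lower between the wild-type bones, and 3.17% were higher between the frontal libraries. In the parietal comparison 5.25% were higher and 2.94% lower. Of 12 sarcolemma and costamere genes, 3 were higher and 1 lower in wild-type parietal than in wild-type frontal, and 2 were higher in Twist1+/- frontal. Ank1, an ankyrin that red cells also use, was at 22.8, 4.72, 13.6 and 10.1 FPKM, and Sgcd, a sarcoglycan, at 6.81, 18.8, 4.45 and 3.83 FPKM. Of 9 genes of the neuromuscular junction, 2 were higher in wild-type parietal than in wild-type frontal, 2 were lower in the library labelled Twist1+/- parietal than in wild-type parietal and 0 passed between the frontal libraries. The highest, Lrp4 at 26.2, 30.3, 29.5 and 32.3 FPKM and Chrnb1 at 1.11, 2.69, 1.99 and 1.46 FPKM, passed in no comparison. Of 14 genes of myoblast fusion and satellite cells, 2 were higher in wild-type parietal than in wild-type frontal and 0 passed between the frontal libraries, while 1 was higher and 2 were lower in the parietal comparison. Among them Mef2c at 40.3, 57.3, 49.3 and 53.5 FPKM and Mef2a at 28.3, 40.03, 32.8 and 24.02 FPKM were highest, and neither passed in any comparison. Among 6 regulators of head muscle, Lhx2 was at 4.12, 0.607, 10.7 and 6.70 FPKM and Msc at 0.226, 1.83, 0.671 and 0.640 FPKM, while Tcf21 was listed at 0 in every library.

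The genes of these lists that were lower in the library labelled Twist1+/- parietal than in wild-type parietal were looked at after their values were seen. They were Sgcd, Klhl41, Chrna1, Rapsn, Mstn and Gm7325. Chrna1, the acetylcholine receptor subunit, was at 0.0379, 1.36, 0.0779 and 0.0684 FPKM, and Rapsn, which clusters that receptor, at 0.186, 1.98, 0.725 and 0.637 FPKM. Mstn, the muscle growth inhibitor myostatin, was at 0.0569, 1.24, 0.169 and 0.0979 FPKM. Gm7325, the fusion peptide also named myomixer, was at 1.17 FPKM in wild-type parietal and 0.0942 in Twist1+/- frontal, and was listed at 0 in the other 2 libraries. Chrna1, Rapsn, Mstn and Gm7325 reached 1 FPKM in wild-type parietal alone, as did the developmental gene Myh3. Between the parietal libraries this follows from how these genes were picked. At such low levels, a lower call needs 1 FPKM in wild-type parietal and a ratio above 3. Higher in the library labelled Twist1+/- parietal were Mylk2, a kinase of fast myosin light chains, at 0.0882, 0.809, 1.04 and 2.47 FPKM, Vgll2, Lhx2 and Myh14.

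Genes that mark heart muscle were checked because several slow genes are shared with it. Of 11 cardiac genes, Nppb, Gata4 and Nkx2-5 were listed at 0 in all 4 libraries. The highest were Myl4, an atrial and fetal light chain, at 18.3, 22.3, 13.4 and 13.8 FPKM, and Nppa at 3.05, 0.195, 1.16 and 0.460 FPKM. Of 7 genes for myosins outside the sarcomere or in specialised muscles, Myh9 was at 58.4, 28.1, 64.1 and 46.3 FPKM and Myh10 at 10.4, 10.6, 7.48 and 6.05 FPKM, with no muscle-like order.

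Markers of other tissues that can stay on calvarial bone also differed between the libraries. Over 9 smooth muscle genes the summed level was 70.9, 192, 108 and 130 FPKM, in the same order as the summed muscle genes. That order rests on Acta2 and Tagln together, and only 3 of the 9 genes were highest in wild-type parietal. Over 7 tendon genes the summed level was 119, 282, 100 and 200 FPKM. The order of the tendon sum rests on Tnmd, a membrane protein of tendon cells, at 21.3, 142, 10.3 and 29.2 FPKM. Without Tnmd the sum was 97.4, 140, 90.1 and 171 FPKM, highest in the library labelled Twist1+/- parietal, as were Fmod, Scx and Comp. The other 4 of the 7, Tnmd, Mkx, Thbs4 and Kera, were highest in wild-type parietal. Tendon genes other than Tnmd and Fmod lie outside the naming rule given below. The sum over 7 neuronal and brain genes was 234, 26.6, 141 and 59.5 FPKM and that over 7 genes of nasal secretory tissue 316, 22.8, 1521 and 1627 FPKM, with Scgb1a1 listed at 0 throughout. Both of these sums were thus lowest in wild-type parietal, which held the most muscle RNA. Of the neuronal genes, Nefl and Stmn2, named outside the naming rule, were lowest in the library labelled Twist1+/- parietal. The part of these lists in the muscle differences was not tested. All 7 tendon and all 7 neuronal genes reached 1 FPKM, as did 7 of 9 smooth muscle and 6 of 7 nasal genes.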

How the data were processed

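Poly(A) RNA from frontal and parietal bone was sequenced as 75-base single-end reads. Per the labels and the study's methods, reads were aligned to mm9 with STAR 2.4.2a, and the authors deposited gene-level FPKM values from Cuffdiff (Cufflinks 2.2.1) for 1 library per group. The scaling option of Cuffdiff, the use of strand and the treatment of multi-mapped reads are not given in the sources used here. FPKM holds no read depth, so the precision of each value is unknown and reads were only estimated from the smallest FPKM steps.

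The FPKM values were used as deposited for 23946 genes. Ratios of FPKM, a ratio of 3 with 1 FPKM in the higher library, and differences of log2(FPKM + 1) were computed in Python 3.11.15 with pandas 2.3.3 and numpy 2.4.6. A fold change is therefore understated for low genes on the log2(FPKM + 1) scale. With 1 library per group no test was run. Genomic positions, transcript lengths and sequences came from the NCBIM37 genome and GENCODE M1, the same assembly as mm9, in which 19330 of the 23946 genes had a coding transcript. Coding sequences were aligned with MAFFT 7.526. The printed upstream stretches also occur in the RefSeq promoter table.

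The 51 genes, the lists and the thresholds were chosen with earlier results of these data known. The text names all 51, the 2 highest genes of each list, list markers at 0 in all libraries, Twist1 and the 10 genes of nearest profile, and genes named outside this rule are said to be so. Alternatives to the pseudocount, floor, ratio, scaling, GC correction and isoform sums were computed, and their effect is given at the end.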

Additional observations from a re-analysis of the deposited data

Results flagged for a closer look

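With 1 library per group, genotype effects of opposite direction in the 2 bones could be listed but the difference was not tested. By any size, 41 of the 51 genes were higher in Twist1+/- frontal than in wild-type frontal and lower in the library labelled Twist1+/- parietal than in wild-type parietal, against 21.1% of all genes. Past the ratio of 3 in both bones there were 6 such genes, against 0.185% of all genes. Their log2 FPKM ratios between the parietal libraries were -1.86 for Mylpf, -1.70 for Casq1, -2.03 for Tnnt1, -2.40 for Myh8, -4.71 for Actc1 and -1.89 for Sln, and each was above 0 between the frontal libraries. Actc1 rests on about 28 reads and Sln on about 39 in the library labelled Twist1+/- parietal, whose Twist1 level did not set it apart from wild-type parietal. Neither the count of 41 nor that of 6 is separate from the order of levels. All 51 were lowest in wild-type frontal and 40, the 6 among them, were highest in wild-type parietal.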

How the results depend on the processing

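Each count and median was recomputed under the alternatives. Of 76 such values, 61 stayed within 1.5-fold of the reported count or share, or within 1.5-fold on the ratio scale of the reported median, 15 moved further and none reversed. In the wild-type comparison only the median moved, to 3.58 on the log2(FPKM + 0.1) scale. In frontal bone the count of 33 became 15 with a floor of 10 FPKM and 17 with a ratio of 8, and the median became 2.32 with a pseudocount of 0.1 and 2.02 over genes at 1 FPKM or more. In parietal bone the count of 14 became 8 with ratios of FPKM + 1, 6 with a floor of 10 FPKM and 2 with a ratio of 8, and the median of -0.45 ranged from -0.69 with the GC trend subtracted to -0.37 with median ratio scaling. Between the Twist1+/- bones the count of 1 became 3 with no floor, 0 with a ratio of 8 and 2 with the GC trend subtracted, the last chosen after seeing the data. With light chains in place of troponin C the slow share became 1.94% in wild-type frontal, 0.276% in Twist1+/- frontal and 0.309% in the library labelled Twist1+/- parietal, and among the 3 adult fast chains Myh4 took 1.90% in wild-type parietal. These follow from fewer genes, another scale or other genes in the sum. No paired analysis was possible because each group has 1 library and the labels carry no replicate numbers. Leaving out a library was likewise not possible.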

Other observations

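The 10 genes outside the muscle lists whose profile over the 4 libraries lay nearest to the muscle median, among genes that reached 10 FPKM in some library, were Mir682, BC002163, 2310015B20Rik, Cirbp, Mlf1, Fitm1, Sh3bgr, Mss51, Mir703 and Mcpt4. Likeness was the root mean square distance between centred log2(FPKM + 1) values, from 0.148 for Mir682 to 0.295 for Mcpt4, over 4 libraries. Fitm1, a lipid droplet protein of striated muscle, was at 0.684, 16.5, 6.83 and 9.38 FPKM in the order wild-type frontal, wild-type parietal, Twist1+/- frontal and the library labelled Twist1+/- parietal. Sh3bgr was at 0.846, 13.7, 3.77 and 4.63 FPKM, and Mss51, a mitochondrial protein of muscle, at 2.96, 16.1, 7.99 and 9.99 FPKM. Mlf1 was at 2.81, 28.1, 15.3 and 13.3 FPKM, and Mcpt4, a protease of mast cells, at 2.94, 27.7, 7.31 and 10.7 FPKM. Cirbp, a cold-inducible RNA-binding protein used in many cells, was at 20.4, 115, 55.3 and 62.1 FPKM.

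Among the other marker lists, the highest genes were Bglap at 6811, 5220, 5371 and 7982 FPKM and Bglap2 at 3255, 2336, 2346 and 3624 FPKM for bone, Acta2 at 28.4, 101, 43.5 and 48.4 FPKM and Tagln at 20.1, 67.7, 35.6 and 48.5 FPKM for smooth muscle, and Fmod at 84.5, 117, 75.5 and 139 FPKM for tendon. The highest neuronal and brain genes were Gfap at 59.1, 7.13, 14.2 and 12.4 FPKM and Snap25 at 50.1, 1.53, 50.8 and 18.6 FPKM, and the highest nasal genes Bpifa1 at 108, 14.7, 625 and 688 FPKM and Obp1a at 57.6, 0.852, 505 and 542 FPKM.

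The summed level of 7 adipocyte genes was 203, 393, 248 and 386 FPKM, nearly all of it Fabp4 at 187, 389, 224 and 363 FPKM. Without Fabp4 it was 16.0, 3.73, 24.6 and 23.6 FPKM, in another order, with Adipoq at 15.2, 2.63, 22.1 and 14.98 FPKM. The sum of 7 meningeal genes was 2253, 1205, 573 and 824 FPKM, and without Igf2, which was at 231, 1127, 215 and 364 FPKM, it was 2022, 78.1, 359 and 460.3 FPKM, most of it Ptgds at 1975, 52.8, 327 and 428 FPKM. Over 7 Schwann cell and nerve genes it was 235, 196, 351 and 417 FPKM, with Mbp at 108, 34.8, 208 and 269.96 FPKM and Pmp22 at 55.7, 111, 61.8 and 78.7 FPKM. The 5 endothelial genes summed to 99.7, 110, 101 and 105 FPKM, with Emcn at 29.5, 44.4, 28.8 and 31.4 FPKM and Pecam1 at 31.1, 41.9, 32.99 and 36.7 FPKM. The 7 neutrophil genes summed to 14826, 7269, 16477 and 9403 FPKM, with S100a8 at 8034, 4373, 9048 and 4924 FPKM and S100a9 at 4183, 2007, 4448 and 2606 FPKM. The 5 epidermal genes summed to 2.47, 2.84, 4.67 and 8.69 FPKM, with Krt5 at 0.236, 0.0936, 1.55 and 3.17 FPKM and Lor at 0.749, 0.467, 0.764 and 2.04 FPKM. Of the 6 erythroid genes, Hbb-b1 at 24924, 17820 and 27525 FPKM and Hba-a1 at 12297, 11198 and 17813 FPKM in the last 3 libraries were highest, and both were listed at 0 in wild-type frontal.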
